A study of Mus musculus with 13 samples.

Results

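The genes described here are 8 immediate early response genes, Fos, Jun, Junb, Egr1, Atf3, Ier2, Btg2 and Dusp1, out of 24470 genes in the count table. They were chosen by name, with earlier results of these data known, and each symbol matched 1 row. Immediate early genes are transcribed within minutes of a stimulus, without new protein synthesis. Growth factors and serum act on them through the ERK cascade, serum response factor and its partners, and cyclic AMP signals act through CREB at cyclic AMP response elements. Dissociation, washing and other handling of live cells can also switch them on, so they serve as a readout of how cells were treated before lysis.

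The cells were E14 mouse embryonic stem cells, a line of 129/Ola background, kept in medium with 15% fetal bovine serum and leukemia inhibitory factor. All libraries share this line and medium, no library had a stimulus or inhibitor, and serum is itself a known inducer of these genes. In the low-input protocol, cells were washed, opened with a mild detergent and treated with the transposase Tn5, and polyadenylated RNA was captured from the lysate afterwards. Each such reaction gave an ATAC library, which marks open chromatin, and an mRNA library. Experiment 1 used 10000 and 20000 cells, and experiment 2, run on another day, used 5000, 10000 and 20000 cells. Omni-ATAC, a published ATAC protocol, gave 1 further library each from 5000, 10000 and 50000 cells. Nothing in the labels says whether the libraries of 1 experiment came from separate cultures, so p-values measure only the spread between these libraries.

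The 5 mRNA libraries held 13727122 to 20426252 counts each. Levels are given as CPM, which are counts scaled to the library's total, and a count of 0 allows up to 3 counts, or 0.147 to 0.219 CPM by library. The ATAC files are lists of peak intervals of unknown read depth, with 9097 to 95457 intervals each. All 5 embryonic stem cell markers (Pou5f1, Sox2, Nanog, Zfp42 and Esrrb) were detected in every mRNA library, with a summed level of 941 to 1151 CPM. Zfp42 and Nanog had the highest means over the 5 libraries, although Nanog was below Pou5f1 in 3 of them, and Zfp42 was the marker that passed the test between experiments, with a log2 fold change of 0.38 ± 0.11 (SE, edgeR adjusted p = 0.0282), a call that was lost as each library was left out in turn. The 5 fibroblast markers summed to 31.4 and 34.9 CPM in experiment 1 and to 7.54 to 9.90 CPM in experiment 2. Thy1, a surface glycoprotein, made up most of that sum in every library and was 29.2 and 33.9 CPM in experiment 1 against 6.77 to 9.78 CPM in experiment 2. Col3a1 was at 0 in all 5 libraries, Col1a1 was at most 1.89 CPM, and 1 to 3 of the 5 markers were at 0 in each library. In bulk libraries such as these, fewer cells of a type and less RNA per cell cannot be told apart. The part of these markers in the differences between experiments given below was not tested.

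The 4 promoter sequences printed first are those that show how the members' start sites differ in known regulatory elements and in the peaks over them. Each is the 250 bases before the RefSeq start (GRCm38.p6, the mm10 assembly), written 5′ to 3′ on the gene's strand. Capitals mark the cyclic AMP response element TGACGTCA, its half-site TGACG on either strand, the TATA box TATAAA, and the CCAAT box.
Dusp1, chr17:26508473-26508722, minus strand: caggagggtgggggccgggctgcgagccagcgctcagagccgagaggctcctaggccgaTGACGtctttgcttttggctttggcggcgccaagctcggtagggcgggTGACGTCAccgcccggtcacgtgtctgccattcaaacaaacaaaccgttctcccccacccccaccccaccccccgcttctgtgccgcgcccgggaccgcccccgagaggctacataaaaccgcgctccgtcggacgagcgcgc
Btg2, chr1:134079156-134079405, minus strand: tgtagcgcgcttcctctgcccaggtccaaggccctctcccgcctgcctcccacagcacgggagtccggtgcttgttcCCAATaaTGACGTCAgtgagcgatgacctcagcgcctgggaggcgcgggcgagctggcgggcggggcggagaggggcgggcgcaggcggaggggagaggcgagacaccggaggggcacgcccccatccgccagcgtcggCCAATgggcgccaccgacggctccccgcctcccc
Fos, chr12:85473640-85473889, plus strand: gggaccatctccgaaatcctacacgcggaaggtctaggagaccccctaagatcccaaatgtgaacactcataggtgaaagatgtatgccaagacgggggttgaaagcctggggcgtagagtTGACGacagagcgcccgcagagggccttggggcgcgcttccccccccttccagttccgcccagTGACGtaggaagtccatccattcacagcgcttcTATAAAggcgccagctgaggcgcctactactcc
Jun, chr4:95052223-95052472, minus strand: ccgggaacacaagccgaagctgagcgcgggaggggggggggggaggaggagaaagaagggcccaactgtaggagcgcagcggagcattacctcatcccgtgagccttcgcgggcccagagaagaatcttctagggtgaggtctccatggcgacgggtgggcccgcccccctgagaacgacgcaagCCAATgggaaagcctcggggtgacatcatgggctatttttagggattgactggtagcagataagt

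In the Dusp1 sequence TGACGTCA stands at bases -143 to -136 from the start, and in Btg2 at -166 to -159. Of the 6 members with a promoter in the RefSeq table, these 2 held it, against 1.55% of 32851 mouse promoters of equal length. The half-site TGACG, which is also part of TGACGTCA, was in 5 of the 6 (Atf3, Btg2, Dusp1, Fos and Junb) against 17.8% of promoters. Fos was the member with TATAAA, at -33 to -28, against 12.4% of promoters. CCAAT was in Btg2, Jun and Junb, against 33.8%. GGGCGG, the box bound by Sp1, was in 5 of 6 against 32.7%, and GCGNGGGCG, the letters bound by Egr1, was in Btg2 alone against 4.70%. No match to TGANTCA, the AP-1 site, or to the CArG box, the site of serum response factor, was found within these 250 bases in the 6 promoters, against 6.75% and 1.47% of all promoters. Both strands were searched for every motif. The members' sequences were 58.4% (Fos) to 73.2% (Btg2) G and C, above the median of 52.4% over all promoters. A match is a description of the letters and not a bound site.

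The genes lie on 6 chromosomes (mm10, coordinates of the count table). Fos spans chr12:85473901-85477269 on the plus strand, Jun spans chr4:95049036-95052222 on the minus strand, and Egr1 spans chr18:34861207-34864956 on the plus strand. Junb, chr8:84976909-84978748, and Ier2, chr8:84661331-84662852, share a chromosome and the minus strand. Btg2, chr1:134074865-134079155, and Atf3, chr1:191170296-191183333, share chromosome 1, also on the minus strand. Dusp1 spans chr17:26505591-26508472 on the minus strand. The members are short: 7 of 8 span under 5000 bp, against 28.5% of all genes in the table, and the median span is 3278 bp against 13910 bp. None overlaps another gene of the table.

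Ier2 and Junb were the abundant members, and 4 of the 8 (Fos, Jun, Egr1 and Atf3) were between 0 and 2.68 CPM in every library. Per kilobase of gene span, introns included, the mean level over the 5 mRNA libraries was highest for Ier2, at 84.4 CPM per kb. Junb followed at 18.8, Dusp1 at 3.73 and Btg2 at 1.54 CPM per kb. The remaining 4 genes were low, with Egr1 at 0.386, Jun at 0.287, Fos at 0.273 and Atf3 at 0.122 CPM per kb. Atf3, which has the longest span by far, ranks last on this scale, although its mean level without division by span, 1.59 CPM, is above that of Egr1 (1.45), Fos (0.920) and Jun (0.915). In CPM, the libraries' ranges overlap among Fos, Jun, Egr1 and Atf3, and those of Btg2 and Dusp1 overlap each other, with the lowest Btg2 value also within the ranges of Egr1 and Atf3. Ier2 lies above Junb in every library, and Junb above the other 6 genes.

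**Figure D1:**
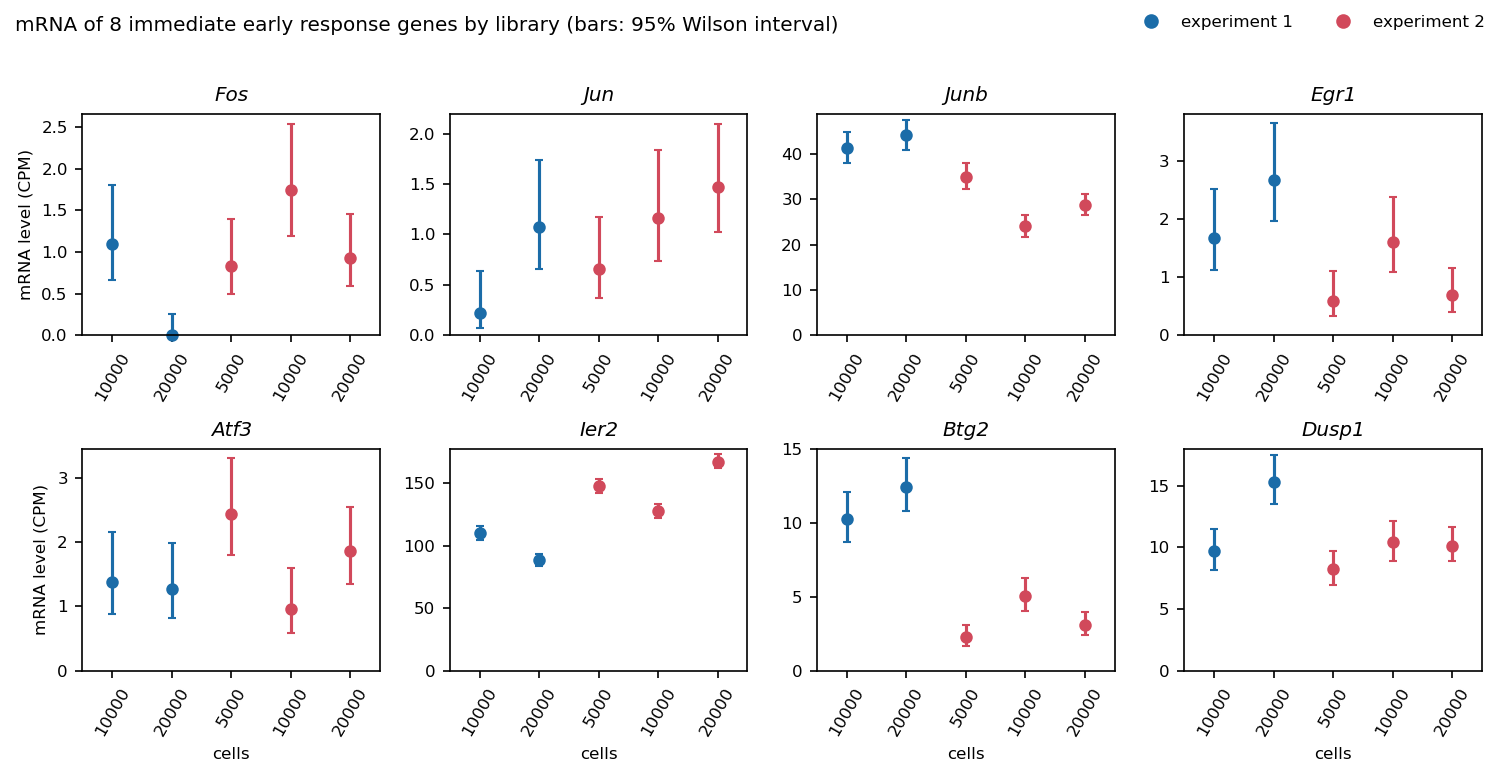
CPM of each of the 8 genes in the 5 mRNA libraries (y axis, with its own range in each panel), with 95% Wilson intervals of the count as bars. Btg2 and Junb are higher in both libraries of experiment 1 than in all 3 of experiment 2, Ier2 is lower in them, and the 20000-cell library of experiment 1 has no Fos count.

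Fos, Jun and Junb encode subunits of AP-1, the dimeric transcription factor of the early response. Fos, the classical stimulus-induced subunit, was 1.09 and 0 CPM with 10000 and 20000 cells in experiment 1, from 15 and 0 counts. In experiment 2 it was 0.835, 1.74 and 0.930 CPM with 5000, 10000 and 20000 cells, from 14, 27 and 19 counts. The count of 0 allows a level of up to 0.201 CPM, which is under the lower limit of the Wilson interval of every other library (the lowest is 0.498 CPM). These intervals treat reads as independent and leave out the spread between libraries, so whether Fos was lower there was not tested. Jun, the subunit that also pairs with itself, was 0.219 and 1.07 CPM in experiment 1 and 0.656, 1.16 and 1.47 CPM in experiment 2. Its lowest value rests on 3 counts, and the ranges of the experiments overlap. Junb, a subunit that can restrain Jun, was 41.4 and 44.1 CPM in experiment 1 and 35.0, 24.1 and 28.7 CPM in experiment 2. Its experiments do not overlap, and every library had at least 373 Junb counts.

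Egr1, a zinc finger transcription factor induced by ERK through serum response factor, was 1.68 and 2.68 CPM in experiment 1 and 0.597, 1.61 and 0.685 CPM in experiment 2. The experiments do not overlap, but the closest values, both from 10000 cells, differ by less than their counting error, with 23 and 25 counts. Atf3, a repressor of the ATF family induced by many stresses, was 1.38 and 1.27 CPM in experiment 1 and 2.45, 0.967 and 1.86 CPM in experiment 2, where both the highest and the lowest value lie. Ier2, a small nuclear protein induced by growth factors, was 110.1 and 88.7 CPM in experiment 1 and 147.9, 127.9 and 167.4 CPM in experiment 2. It was the most abundant member in every library, and its experiments do not overlap.

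Btg2, an antiproliferative cofactor of mRNA deadenylation and also a p53 target, was 10.3 and 12.4 CPM in experiment 1 and 2.27, 5.03 and 3.08 CPM in experiment 2. Every library of experiment 1 was above every library of experiment 2. Dusp1, the phosphatase that switches off MAP kinases, was 9.69 and 15.3 CPM in experiment 1 and 8.23, 10.4 and 10.1 CPM in experiment 2. The ranges of Dusp1 overlap, and the 20000-cell library of experiment 1 is the high one.

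The experiments were run on different days to see how reproducible the protocol is, so the members were compared between the experiments first, over the 10000- and 20000-cell libraries. Btg2 and Junb were lower in experiment 2 and Ier2 was higher, while Fos, Jun, Egr1, Atf3 and Dusp1 did not pass the test. In this fit, edgeR's quasi-likelihood test with Benjamini-Hochberg adjustment, 3 of 8 members passed an adjusted p of 0.05, against 12.5% of the 12523 genes tested. By direction, 1 member was called higher (5.75% of all genes) and 2 were called lower (6.76%). The members' median log2 fold change was -0.09, and that of all genes tested was 0.00. The members' median changed sign with the libraries used, at 0.05 with all 5, 0.10 without the 10000-cell library of experiment 2 and 0.08 without the 20000-cell library of experiment 1. It was -0.21 without the 10000-cell library of experiment 1 and -0.34 without the 20000-cell library of experiment 2. All 8 members passed the filter on low counts. As each library was left out in turn, 1 to 3 members were called, the fewest without the 20000-cell library of experiment 2.

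Btg2 was 11.4 ± 1.54 CPM in experiment 1 and 4.06 ± 1.38 CPM in experiment 2 (SD, n = 2 each), a log2 fold change of -1.49 ± 0.31 (SE, edgeR adjusted p = 0.00192). Within cell numbers, the log2 ratio of CPM was -1.03 with 10000 and -2.01 with 20000 cells. Without the 20000-cell library of experiment 2, the fitted change was -1.16 (edgeR adjusted p = 0.0550).

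Junb was 42.7 ± 1.92 CPM in experiment 1 and 26.4 ± 3.28 CPM in experiment 2 (SD, n = 2 each), a log2 fold change of -0.69 ± 0.17 (SE, edgeR adjusted p = 0.00609). The log2 ratio was -0.78 with 10000 and -0.62 with 20000 cells. Its call was lost without the 10000-cell library of experiment 2 (-0.57, edgeR adjusted p = 0.107) and when the 5000-cell library was added (-0.50, edgeR adjusted p = 0.0617).

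Ier2 was 99.4 ± 15.1 CPM in experiment 1 and 147.7 ± 28.0 CPM in experiment 2 (SD, n = 2 each), a log2 fold change of 0.57 ± 0.14 (SE, edgeR adjusted p = 0.00837). Within cell numbers, the log2 ratio was 0.22 with 10000 and 0.92 with 20000 cells. Its call was lost without either 20000-cell library, at 0.44 without that of experiment 1 (edgeR adjusted p = 0.0831) and 0.38 without that of experiment 2 (edgeR adjusted p = 0.175).

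Ier2 and Junb lie on chromosome 8, where genes as a whole were higher in experiment 2. There, 410 genes averaged 10 CPM or more. Their median log2 fold change was 0.46, and 91.2% of them were above 0. Ier2 exceeded that median by 0.11, and Junb was below it by 1.15 on the log2 scale. The other members' chromosomes had medians between -0.10 (chromosome 17) and 0.07 (chromosome 1), and genes of that level on all chromosomes had 0.01. The part of the chromosome-wide shift in the Ier2 difference was not tested.

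For the other 5 members the intervals are wide. Fos had a log2 fold change of 1.29 with a 95% interval of -0.85 to 3.44, and Jun had 1.01 with an interval of -0.81 to 2.83. Egr1 had -0.93 (-2.37 to 0.51) and Atf3 had 0.10 (-1.39 to 1.59). These genes had at most 41 counts in a library, and single libraries moved their values. Fos was 0.30 without the 20000-cell library of experiment 1 and 0.78 and 1.69 without the 10000- and the 20000-cell library of experiment 2. Without the 10000-cell library of experiment 1, that experiment has a Fos count of 0 and no fold is given. Jun was 2.57 without the 20000-cell and 0.30 without the 10000-cell library of experiment 1. Egr1 was -1.65 without the 10000-cell and -0.42 without the 20000-cell library of experiment 2, and -0.54 without the 20000-cell library of experiment 1. Dusp1 had a narrower interval, at -0.29 (-0.81 to 0.23). As each library was left out, Dusp1 ran from -0.58 to 0.10 and Atf3 from -0.44 to 0.49.

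**Figure D2:**
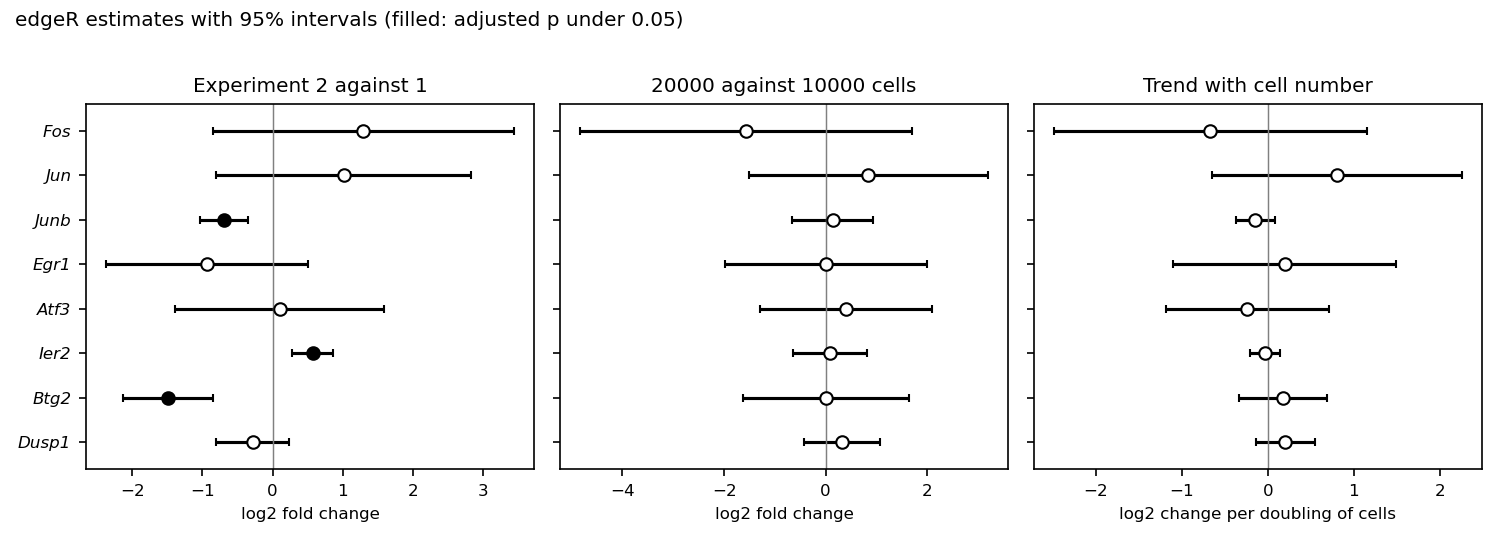
Fitted log2 fold changes of the 8 genes with 95% intervals (x axis) in the comparison of experiments, the comparison of 20000 with 10000 cells, and the trend per doubling of cell number. Between experiments Btg2, Junb and Ier2 have adjusted p under 0.05, and for cell number every member's interval includes 0.

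Other genes of the early response and of stress pathways were compared in the same fit, in which 5.75% of all genes were called higher and 6.76% lower. Among 12 other early response transcription factors, 7 passed the filter on low counts, and 3 of those were lower and 0 higher in experiment 2, with a median log2 fold change of -0.40. That median was 0.31 over all 12 genes without the filter and ran from -0.51 to 0.01 as each library was left out, highest without the 20000-cell library of experiment 1. The 3 were Myc, the growth regulator (-0.98 ± 0.17 SE, edgeR adjusted p = 0.000258), Nr4a1, an orphan nuclear receptor (-0.73 ± 0.16 SE, edgeR adjusted p = 0.00280), and Maff, a small Maf protein (-1.06 ± 0.24 SE, edgeR adjusted p = 0.00383). Nr4a1 was 57.9 and 81.3 CPM in experiment 1 and 36.8 to 42.4 CPM in experiment 2, with no overlap. Myc was 55.2 and 44.6 CPM in experiment 1 and 23.9 to 26.7 CPM in experiment 2, also with no overlap. The number called lower was 2 to 3 as each library was left out. Nr4a1 lost its call without the 20000-cell library of experiment 1 (-0.45, edgeR adjusted p = 0.110), and Maff without that of experiment 2 (-0.89, edgeR adjusted p = 0.0719). The 5 not tested were Fosb, Fosl1, Egr2, Egr3 and Nr4a2, all with few counts.

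Of 12 other early response genes, 11 were tested, with 1 higher and 1 lower and a median of -0.14, which ran from -0.25 without the 10000-cell to -0.0021 without the 20000-cell library of experiment 1. Sgk1, a kinase downstream of PI3K, was higher (0.51 ± 0.13 SE, edgeR adjusted p = 0.00991), and Plk2, a kinase that is also a p53 target, was lower (-1.62 ± 0.40 SE, edgeR adjusted p = 0.00777). Mcl1, the survival factor, had a log2 fold change of -0.07. Without the 10000-cell library of experiment 2, neither Sgk1 (edgeR adjusted p = 0.0821) nor Plk2 (edgeR adjusted p = 0.0939) was called, and Sgk1 was also lost without that of experiment 1 (edgeR adjusted p = 0.0611). Of 12 upstream kinases and serum response regulators, 11 were tested and 1 passed, the ERK-activated kinase Rps6ka3 (0.81 ± 0.20 SE, edgeR adjusted p = 0.00782). The ERK kinase Mapk3 had a log2 fold change of 0.14, and the median of the list was 0.09, which became 0.26 and 0.23 without the 10000-cell library of experiment 1 and of experiment 2. Rps6ka3 was 12.7 and 16.3 CPM in experiment 1 and 14.9, 26.2 and 24.6 CPM in experiment 2, so the ranges overlap through the 5000-cell library. Its call was lost when that library was added (0.63, edgeR adjusted p = 0.0657) and without the 10000-cell library of experiment 1 (0.64, edgeR adjusted p = 0.0842) or 2 (0.77, edgeR adjusted p = 0.0752). Of 8 ERK feedback genes, 1 was lower, Phlda1 (-1.03 ± 0.32 SE, edgeR adjusted p = 0.0357), a call that was lost under DESeq2 (adjusted p = 0.0756) and in every fit that left out a library, except that without the 20000-cell library of experiment 1. The list's median was -0.24, and -0.11 and -0.13 without the 10000-cell library of experiment 1 and of experiment 2. Etv5 and Etv4, transcription factors downstream of ERK, had log2 fold changes of -0.02 and -0.29, and Etv4 ran from -0.46 without the 20000-cell to -0.12 without the 10000-cell library of experiment 2.

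Stress response genes were compared in 2 further lists. Like the lists above, these were chosen with earlier results of these data known, so the numbers called are descriptions. Of 8 p53 target genes, 6 were lower in experiment 2 and 0 higher, with a median log2 fold change of -0.79, and 2 to 6 were called lower as each library was left out. The count was 2 without the 10000- or the 20000-cell library of experiment 2 and 4 without the 20000-cell library of experiment 1. Ccng1 fell most, by 1.32 on the log2 scale (edgeR adjusted p = 7.80e-07), from 96.1 and 96.9 CPM in experiment 1 to 34.9 to 47.7 CPM in experiment 2. The other 5 were Trp53inp1 (-1.10), Phlda3 (-0.98), Zmat3 (-0.88), Cdkn1a, the cell cycle inhibitor (-0.69), and Mdm2, the p53 ligase (-0.57), with edgeR adjusted p from 0.00355 to 0.0265. DESeq2 called 5 of the 6, all but Phlda3 (adjusted p = 0.0568). Bax, the apoptosis effector and the most abundant of the list, had a log2 fold change of -0.14, which was -0.030 and -0.045 without the 10000-cell and -0.23 and -0.22 without the 20000-cell library of experiments 1 and 2. Of 8 integrated stress response genes, 4 were lower: Ddit3 (-1.28), Sesn2 (-0.80), Ppp1r15a (-0.75) and Chac1 (-0.49), with edgeR adjusted p from 0.00469 to 0.0332. The more abundant Atf4, the central factor of that response, had -0.11, and Asns, its amino acid synthesis target, had 0.32. DESeq2 called 3 lower, without Sesn2 (adjusted p = 0.0617), and called Asns higher (0.33, adjusted p = 0.0438), as edgeR did among genes averaging 10 CPM or more (0.32, adjusted p = 0.0444). Sesn2 was -0.27 without the 10000-cell library of experiment 1 (edgeR adjusted p = 0.606). The list's median was -0.35. The number called lower was 0 without the 10000-cell library of experiment 2, 1 without that of experiment 1, and 3 to 4 without a 20000-cell library. Thy1, given above, was higher in experiment 1, as were the p53 and integrated stress response genes that passed, and its part in them was not tested.

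**Figure D3:**
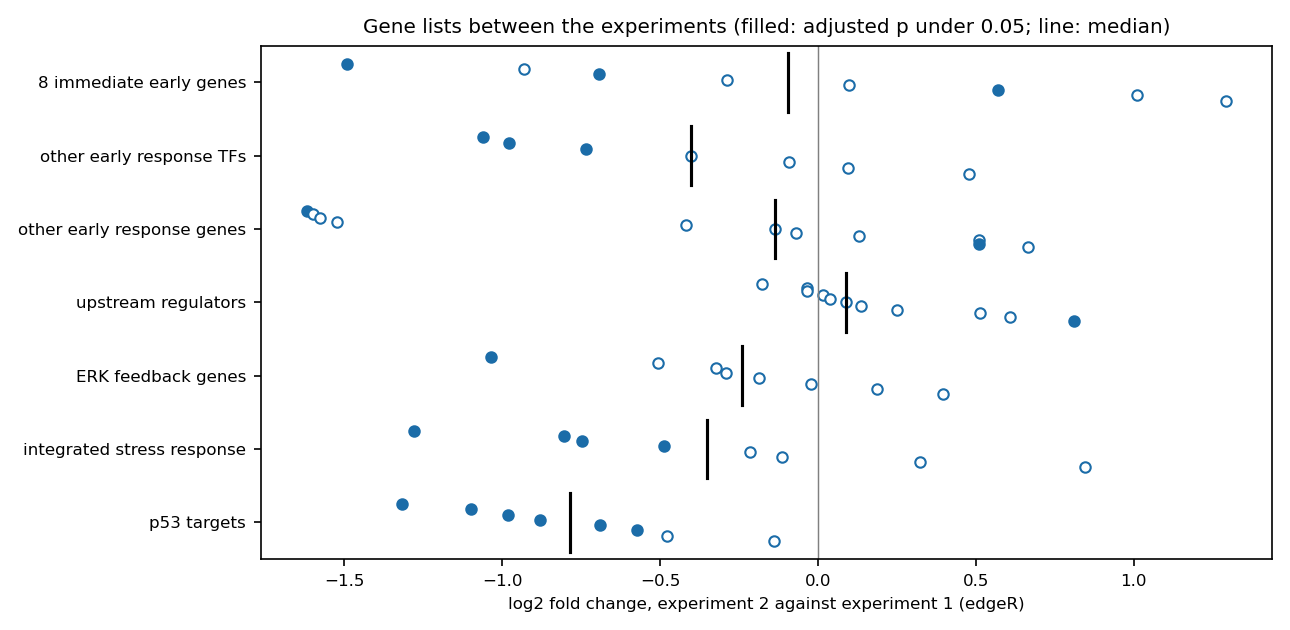
Log2 fold change between experiments 2 and 1 (x axis) of every tested gene in the 8 members and in each comparison list (rows), with filled points for genes with an edgeR adjusted p under 0.05 and a bar at each list's median. The p53 target genes lie at or below -0.14, while the members lie on both sides of 0.

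Cell number was varied to find how little input the protocol tolerates, and the members showed no call with it. Between 20000 and 10000 cells, 0 of 8 members passed the test, against 0% of the 12523 genes tested. This fit had no term for the experiment, so differences between the experiments added to its spread. edgeR called 0 genes, with 101 at an unadjusted p under 0.05 and 0 members among them, and DESeq2 called 0. The log2 fold changes were 0.14 for Junb (95% interval -0.66 to 0.94), 0.09 for Ier2 (-0.64 to 0.81), 0.00 for Btg2 (-1.63 to 1.64) and 0.32 for Dusp1 (-0.43 to 1.08). Those of the low genes were -1.56 for Fos (-4.83 to 1.70), 0.84 for Jun (-1.51 to 3.19), 0.00 for Egr1 (-1.98 to 1.99) and 0.40 for Atf3 (-1.28 to 2.08). As each library was left out, Dusp1 ran from 0.0057 to 0.60 and Atf3 from 0.11 to 0.68. Jun ran from 0.12 without the 10000-cell library of experiment 1 to 2.50 without that of experiment 2. Fos was -0.62 without the 20000-cell library of experiment 1, and without that of experiment 2 the 20000-cell group has a Fos count of 0 and no fold is given. With the experiment as a replicate block, 4 genes were called and no member was among them. In that fit Junb had 0.15 ± 0.17, Ier2 had 0.03 ± 0.14, Btg2 had -0.19 ± 0.31 and Dusp1 had 0.29 ± 0.25 (SE). Without the block their SEs were larger, at 0.33, 0.30, 0.68 and 0.31. For Jun and Atf3 the SEs were larger with the block. Fos had the largest change of the members with the block, at -2.19 (edgeR adjusted p = 0.998).

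Within the experiments, Ier2 was the member whose counting intervals lay on opposite sides of 1. It was 0.806 times as high with 20000 as with 10000 cells in experiment 1 (exact 95% interval of the ratio of counts 0.748 to 0.868) and 1.31 times as high in experiment 2 (1.24 to 1.38). For 6 other members, 1 of the 2 intervals included 1 and the other did not. Btg2 had ratios of 1.21 (0.968 to 1.52) in experiment 1 and 0.613 (0.433 to 0.866) in experiment 2. Egr1 had 1.60 (0.934 to 2.80) and 0.425 (0.204 to 0.850). Dusp1 had 1.58 (1.27 to 1.97) and 0.976 (0.791 to 1.21). Among these, Btg2 and Egr1 were lower with more cells where the interval left out 1, and Dusp1 was higher, as were the next 3 genes. Atf3 had 0.919 (0.460 to 1.83) and 1.92 (1.03 to 3.76). Junb had 1.07 (0.951 to 1.19) and 1.19 (1.05 to 1.36). Jun had 4.90 (1.40 to 26.2), from 3 counts with 10000 cells, and 1.27 (0.683 to 2.41). Fos was lower in both experiments, with 0 counts against 15 in experiment 1 and a ratio of 0.534 (0.281 to 0.997) in experiment 2. The intervals treat reads as independent and leave out the spread between libraries. Without molecular identifiers copies of 1 molecule can be counted more than once, so they can be too narrow even for counting error.

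The smallest input, 5000 cells, was run in experiment 2 alone and has no replicate. Against 10000 cells of that experiment, the log2 ratio was 0.54 for Junb, 0.21 for Ier2 and 1.34 for Atf3. It was -1.15 for Btg2, -1.43 for Egr1, -1.06 for Fos, -0.82 for Jun and -0.33 for Dusp1. Thus 3 members were higher and 5 were lower at the smallest input. In a fit over all 5 libraries, with the experiment as a term, the change per doubling of cell number was called in 0 of 8 members, against 0.0233% of 12856 genes. edgeR called 3 genes, all lower with more cells (Fkbp3, Gm21761 and Rwdd1), and 1058 genes had an unadjusted p under 0.05, of which 0 were members. DESeq2 called 78 genes and 0 members. The slopes per doubling were best bounded for Ier2 (-0.03, 95% interval -0.20 to 0.14), Junb (-0.15, -0.37 to 0.08), Dusp1 (0.21, -0.14 to 0.55) and Btg2 (0.18, -0.33 to 0.69). For Fos (-0.67, -2.48 to 1.15), Jun (0.80, -0.64 to 2.25), Egr1 (0.20, -1.10 to 1.49) and Atf3 (-0.24, -1.18 to 0.71) the intervals include a doubling or a halving or both. As each library was left out, the slope of Dusp1 ran from 0.089 to 0.46 and that of Jun from 0.51 to 1.42. No gene of the other lists was called in either comparison of cell number.

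The ATAC lists were read at the members' promoters, taken as 1000 bp on each side of the start given in the count table. Egr1 and Dusp1 had a peak in all 8 lists, as did 14.8% of the 24470 genes. With peaks of at least 50 bp, Egr1 had one in 6 lists and Dusp1 in 5, so that 0 members had one in all 8, against 4.77% of genes. With the 9097 widest peaks of each list they had 6 and 7 lists, again 0 members in all 8, against 6.13%. Jun had a peak in 6 lists, and Fos and Btg2 had one in 4 lists each. Junb, Atf3 and Ier2 had one in 2 lists each. The authors' unified list held a promoter peak for Jun, Egr1 and Dusp1, 3 of 8 members against 33.2% of all genes.

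By library, 2 of 8 members had a promoter peak with 5000 cells in experiment 2, against 31.1% of all genes. In experiment 1 there were 3 members with 10000 cells (31.1%) and 4 with 20000 cells (37.4%). In experiment 2 there were 4 with 10000 cells (40.5%) and 7 with 20000 cells (50.3%), all but Junb. Omni-ATAC had 3 members with 5000 cells (18.6%), 5 with 10000 cells (41.5%) and 8 with 50000 cells (61.1%). The count was 8 in the longest list (95457 intervals), 7 in the next (49508) and 2 to 5 in the other 6, of which the shortest (9097) held 3. Starts displaced by 100000 bp had a peak in 1.32% to 11.3% of genes by list. No test was made of these shares.

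**Figure D4:**
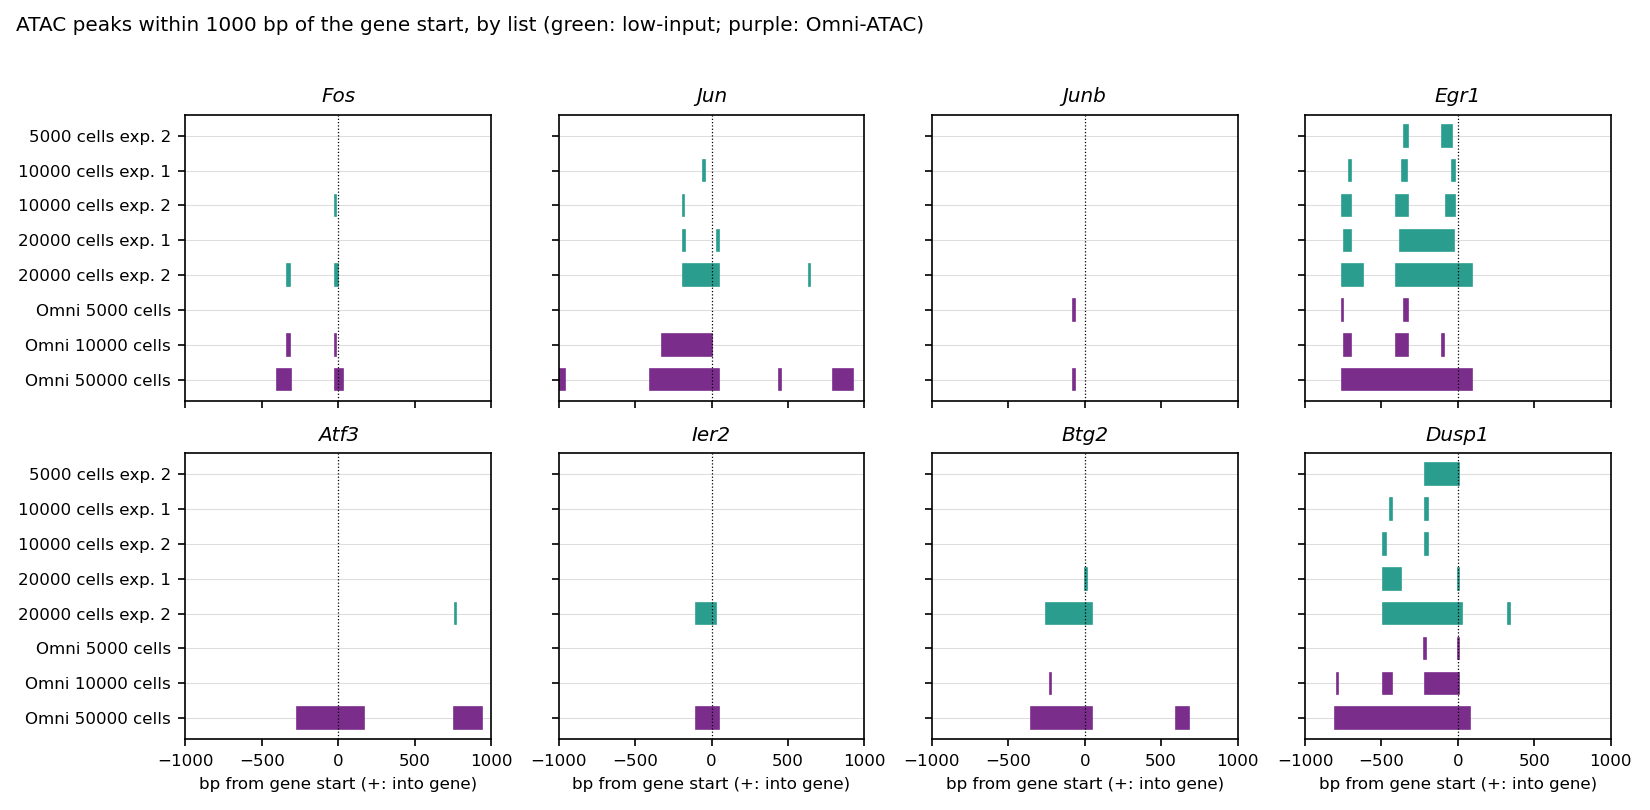
Peak intervals within 1000 bp of each member's start (x axis, distance from the start in bp, negative upstream) in the 8 ATAC lists (rows). Egr1 and Dusp1 have intervals in every row, Junb has only 2 intervals of 9 bp, and intervals widen in the 20000-cell list of experiment 2 and the Omni-ATAC list from 50000 cells.

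At Egr1 the narrower peaks fell at 3 places upstream of the start, within -761 to -703, -405 to -326 and -103 to -21. They covered 89 bp of the window with 5000 cells, 63 and 196 bp with 10000 cells, and 399 and 641 bp with 20000 cells in the low-input lists (experiment 1 before experiment 2). The Omni-ATAC lists covered 37, 128 and 855 bp with 5000, 10000 and 50000 cells, the last in 1 interval that joined the 3 places. At Dusp1 the covered length was 224 bp with 5000 cells, 30 and 40 bp with 10000 cells, 131 and 529 bp with 20000 cells, and 18, 292 and 885 bp with Omni-ATAC. The interval from -214 to 9 appeared in the low-input list from 5000 cells and the Omni-ATAC list from 10000 cells with identical ends, and it spans the TGACGTCA of the sequence printed above. In all, 4 lists had a peak over that element in Dusp1. In Btg2, 2 lists had a peak over it, the 20000-cell list of experiment 2 (from -251 to 48) and the Omni-ATAC list from 50000 cells (from -354 to 49).

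Fos had a narrow peak at the start in 4 lists, 9 to 19 bp wide and upstream of it in 3 and 53 bp wide and across it in Omni-ATAC from 50000 cells. There was another near -336 to -316 in 3 of these lists. None of these covered the TATA box or the half-sites in capitals above, whose positions are counted from the RefSeq start. Jun was covered from -187 to 47 in the 20000-cell list of experiment 2, from -325 to 3 in Omni-ATAC from 10000 cells and from -400 to 45 in Omni-ATAC from 50000 cells, which includes its CCAAT box. In the 3 other lists with a peak at Jun the intervals were 9 or 10 bp. Ier2 had 128 bp covered in the 20000-cell list of experiment 2 and 152 bp in Omni-ATAC from 50000 cells, both across the start. Atf3 had 9 bp in the former and 616 bp in the latter. Both Junb peaks were the same 9 bp, chr8:84978815-84978823.

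Promoter peaks were set beside transcript levels, member by member. Over all genes that averaged 100 CPM or more, a gene had a promoter peak in 5.91 lists on average, and 11.3% had one in 2 lists or fewer, as Ier2 did at 128.4 CPM. Among genes of 10 to 100 CPM the mean was 5.67 lists, and 14.1% had one in 2 or fewer, as Junb did. Among genes of 1 to 10 CPM the mean was 4.50 lists, and 20.8% had a peak in all 8, as Egr1 did at 1.45 CPM. Fos and Jun, under 1 CPM, had 4 and 6 lists, against a mean of 1.74 lists for detected genes under 1 CPM. Dusp1, at 10.8 CPM, had 8 lists against the mean of 5.67. Btg2 and Atf3, at 6.62 and 1.59 CPM, had 4 and 2 lists against the mean of 4.50. These counts hold for the window of 1000 bp and peaks of any width. Those of Fos and Jun include intervals as narrow as 9 bp. With a window of 2500 bp Junb and Ier2 had a peak in more lists, as given below.

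**Figure D5:**
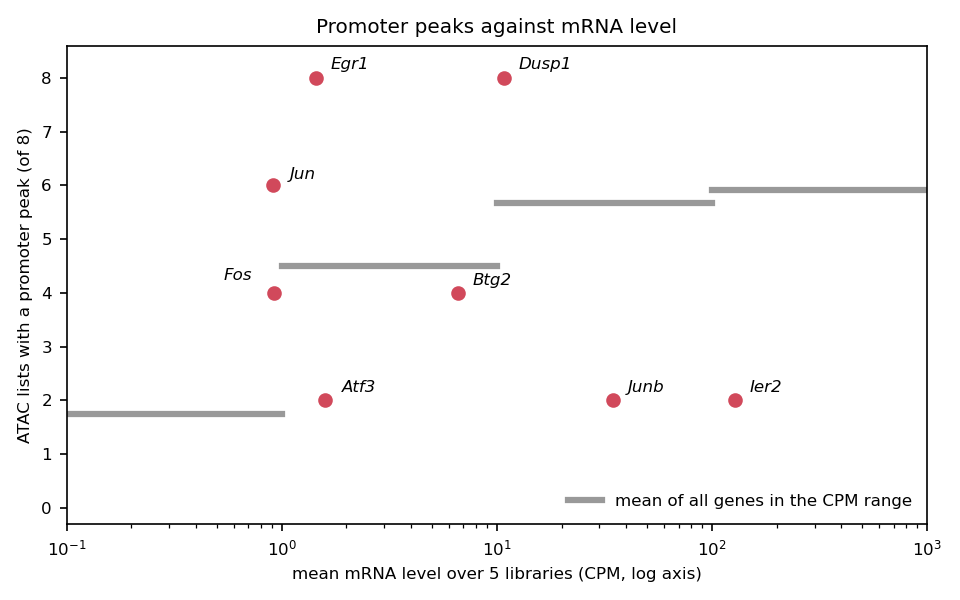
Number of ATAC lists with a promoter peak (y axis, 0 to 8) against mean mRNA level over 5 libraries (x axis, CPM, log scale) for the 8 members, with the mean over all genes in each range of CPM as lines. With a window of 1000 bp and peaks of any width, Egr1, Dusp1, Jun and Fos lie above the line of their range, and Ier2, Junb, Atf3 and Btg2 lie below theirs.

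Peaks beyond the promoter window were counted up to 50000 bp from each start after the 8 lists were merged into regions. Ier2 had 35 regions, 6 of them in 6 or more lists and 3 in all 8, and Junb had 29, with 8 and 2. Egr1 had 11 regions with 4 in 6 or more lists, Btg2 had 17 with 2, and Fos had 10 with 2. Jun had 6, Dusp1 had 7 and Atf3 had 5, with 0 in 6 or more lists. Peaks that reach into the promoter window were left out of these counts. Such a peak at Jun, from -1411 to -962 in Omni-ATAC from 50000 cells, spans a region at -1238 to -1065 counted in 5 lists. Close to Ier2, a region at -1408 to -1155 (chr8:84664007-84664260) was in 7 lists. Close to Junb, a region 2010 to 2407 bp downstream of the start, past the gene's end (chr8:84976341-84976738), was in 7 lists. With a window of 2500 bp in place of 1000 bp, Junb therefore had a peak in 8 lists and Ier2 in 7. The wider window moved the share of all genes with a peak in 7 or more lists from 24.6% to 26.7%, and in all 8 from 14.8% to 16.1%. Regions within 50000 bp need not belong to the member, and 1 of the 2 near Junb found in all 8 lists overlaps the start of Hook2. Fos had regions at -18907 to -18344 in 7 lists and at 11875 to 12429 in 6, with Fos the nearest start to both. Egr1 had a region at -1315 to -1099 in 7 lists.

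The genes whose levels over the 5 mRNA libraries were most like those of Fos and Egr1 were sought among the 6485 genes that averaged 10 CPM or more. Likeness was the root mean square difference of log2(CPM + 1) after each gene's mean was removed. Pnrc2 (0.116), Dnah8 (0.186) and Heatr3 (0.195) were closest to Fos, whose own SD over the libraries was 0.478 on that scale. Dcaf17 (0.105), Zfp518b (0.115) and Etnk1 (0.125) were closest to Egr1, whose own SD was 0.451. With 5 libraries and 6485 candidates these are descriptions.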

How the data were processed

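Groups were taken from the sample titles, and the experiment number served as the replicate number. The authors deposited whole-number counts per gene for 5 mRNA libraries. ATAC data were deposited as peak intervals with no score, 1 list per library and a unified list. Per the submitters' processing notes, the tools were cutadapt, Bowtie2 2.1.0, SAMtools 1.3.1, Picard, bedtools 2.24.0, MACS2 2.1.1, STAR 2.5 and featureCounts of Subread 1.5.0-p1, with mm10. Peak thresholds, strand use, the annotation and the counting of multi-mapping reads are not given in the sources used here. Intervals of 9 bp, the shortest, made up 24.4% to 59.2% of a list.

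CPM were counts scaled to the library total, with 95% Wilson intervals. Tests used edgeR 4.0.16 (TMM, filterByExpr, quasi-likelihood, R 4.3.3) over all genes, adjusted by Benjamini-Hochberg with a threshold of 0.05, and were tested on simulated counts. The SE was the size of the log2 fold change divided by the square root of the test's F statistic. The 95% intervals of fold changes were built from that SE, and both are approximate where counts are few. DESeq2 1.42.0, other size factors, other filters on low counts, peak widths and windows, and leaving out each library were tried. The filter needs counts in only as many libraries as the smaller group holds, so a gene can pass it through the group where it is high. Per the series' design text the experiments took place on different days, so their numbers mark a shared day and pair libraries across cell numbers. Across 12523 genes the change between experiments with 10000 cells was correlated with that with 20000 cells (r = 0.536, equal sign in 66.3%). No libraries agreed within sampling noise.

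All members are named, as are listed genes that passed a test and the 2 most abundant of each list, apart from 1 gene that is not reported here. The members and the lists were chosen with earlier results of these data known. Promoter sequences came from RefSeq (GRCm38.p6) and matched 6 of 8 members, all but Egr1 and Ier2. Python 3.11.15 was used for peaks and figures.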

Additional observations from a re-analysis of the deposited data

Results flagged for a closer look

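Ier2 moved in opposite directions with cell number in the 2 experiments. From 10000 to 20000 cells its CPM changed by -0.31 on the log2 scale in experiment 1, from 110.1 to 88.7 CPM. In experiment 2 it changed by 0.39, from 127.9 to 167.4 CPM. The exact counting interval of each ratio lies on its own side of 1, at 0.748 to 0.868 in experiment 1 and 1.24 to 1.38 in experiment 2. There is 1 pair of libraries per experiment, so the difference between the experiments was not tested, and counting intervals do not include the spread between libraries. Junb, on the same chromosome, had 0.09 and 0.25 in the same pairs.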

How the results depend on the processing

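Between experiments, the genes called (1567) ranged from 803 to 1817 and the members called (3) from 1 to 3 as each library was left out, and the other settings kept both counts within 1.5 times. Btg2, Junb and Ier2 kept their direction in every fit, with log2 fold changes of -1.87 to -1.16, -0.82 to -0.57 and 0.38 to 0.76 as each library was left out. Leaving out libraries moved these uncalled genes across 0: Dusp1 (-0.58 to 0.10), Atf3 (-0.44 to 0.49), Nanog (-0.16 to 0.0056), Etv5 (-0.12 to 0.083), Mcl1 (-0.12 to 0.0027) and Mapk3 (-0.088 to 0.35). Without a filter on low counts Etv5 had 0.00079.

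Between 20000 and 10000 cells, 2 genes were called without a filter and 4 with the experiment as a replicate block. The block turned Egr1 to -0.25 and Btg2 to -0.19 and changed no member's call. Leave-one-out values crossed 0 for Ier2 (-0.43 to 0.48), Junb (-0.19 to 0.58), Egr1 (-1.26 to 0.69) and Btg2 (-1.31 to 0.70).

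For the trend with cell number (3 genes), 5 genes were called with RLE size factors, 0 with library size alone, 78 with DESeq2, 21 without a filter, 15 at a mean of at least 10 CPM, 0 with no replicate block, and 0 to 77 as each library was left out. No member was called in any of these fits. Ier2 turned to 0.016 with library size alone. Leave-one-out slopes crossed 0 for Fos (-2.19 to 0.013), Junb (-0.26 to 0.15), Egr1 (-0.25 to 0.99), Atf3 (-0.77 to 0.40), Ier2 (-0.30 to 0.031) and Btg2 (-0.19 to 0.63). The cause of these shifts was not tested.

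The 2 members with a promoter peak in all 8 lists became 0 with peaks of at least 50 bp (4.77% of all genes) and 0 with the 9097 widest peaks of each list (6.13%), and 3 with a window of 2500 bp (16.1%). The ATAC read depth is unknown.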
